A study of Homo sapiens with 20 samples.

Results

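PER1, PER2, PER3, CRY1 and CRY2, the 5 genes of the negative limb of the circadian clock, were examined in CUT&RUN peak lists of BMAL1 and HIF2α from the established line A498, which models clear cell renal cell carcinoma (ccRCC). A peak was taken as belonging to a gene when any part of it lay within the GRCh37 gene body or the 10 kb to either side. This rule found 22 of the 12171 peaks in the 4 lists, and joining overlapping peaks gave 14 sites. The libraries came from cells infected with a lentivirus carrying a scramble shRNA (shCNT) or one that targets BMAL1 (shBMAL1), each probed with an antibody to BMAL1 or to HIF2α. CUT&RUN cuts and releases the DNA beside an antibody-bound protein, so that a peak marks a region with more released fragments than its surroundings. All groups share the A498 background, and no RNA or protein level of BMAL1 is in the files, so the knockdown was not checked by expression. Per the labels there are 4 libraries for each antibody and shRNA and 2 IgG libraries for each shRNA, but 1 peak list was analysed per antibody and shRNA. No difference between shRNAs therefore has a replicate check, no p-value was computed for one, and every interval covers counting error only.

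BMAL1 pairs with CLOCK or NPAS2 to bind the E-box CACGTG and switch on the PER and CRY genes. The PER and CRY proteins accumulate, enter the nucleus and repress the same activator, which closes the negative feedback loop of the clock. HIF2α, which is stabilised in most ccRCC through loss of VHL, is a relative of BMAL1 in the bHLH-PAS family and binds the hypoxia response element (HRE) with ARNT.

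The lists held 2350 shCNT BMAL1 peaks, 4261 shBMAL1 BMAL1 peaks, 2361 shCNT HIF2α peaks and 3199 shBMAL1 HIF2α peaks. The depth of each list was read from its lowest local background, the number of fragments that the caller expected at a position. With the BMAL1 antibody it was 0.168 under shCNT and 0.0839 under shBMAL1, and with the HIF2α antibody 0.209 and 0.109. By this measure the shBMAL1 list had 0.50 of the depth of the shCNT list for BMAL1 and 0.524 for HIF2α. No count of reads was used, so these depths are estimates, as are the scaled values below. Median pileup, the height of overlapping fragments at a summit, ran from 5 to 8 over the lists.

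The sequences below lie under or beside the summits of the BMAL1 peaks and are shown because they hold the E-boxes and E′-boxes of the members. Capitals mark the E-box CACGTG or its near match CACGTT, the E′-box, which reads AACGTG on the other strand. Both were searched on both strands. All sequences are from GRCh37, written 5′ to 3′ in the direction in which the gene is transcribed. The E-box contains the HRE core ACGTG, so a match to one is also a match to the other, and the same holds for the E′-box read as AACGTG.

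The PER1 upstream site, chr17:8059837-8060066, minus strand, held 2 E-boxes with 178 bases between them.
PER1 upstream: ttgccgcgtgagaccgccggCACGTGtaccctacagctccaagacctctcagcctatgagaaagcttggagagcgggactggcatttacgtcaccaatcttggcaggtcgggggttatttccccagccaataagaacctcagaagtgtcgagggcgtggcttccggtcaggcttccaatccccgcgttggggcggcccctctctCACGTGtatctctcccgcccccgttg
A middle site, chr17:8056963-8057081, minus strand, held 1 E-box and 1 E′-box with 67 bases between them.
PER1 middle: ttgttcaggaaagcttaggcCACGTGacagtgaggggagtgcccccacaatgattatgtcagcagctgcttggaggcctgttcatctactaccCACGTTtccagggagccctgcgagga
A site at the MANE start, chr17:8055870-8055915, minus strand, held 1 E-box.
PER1 start: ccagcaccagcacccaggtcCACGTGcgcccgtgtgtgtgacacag
At PER2, chr2:239197431-239197460, minus strand, an E′-box lay inside the peak.
PER2 start: ggcgcgcgcggtCACGTTttccactatgtg
At PER3, chr1:7843907-7844006, plus strand, 2 E-boxes were separated by 48 bases.
PER3 start: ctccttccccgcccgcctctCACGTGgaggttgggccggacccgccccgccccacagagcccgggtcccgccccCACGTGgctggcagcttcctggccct
At CRY1, chr12:107487391-107487436, minus strand, the start held 1 E′-box.
CRY1 start: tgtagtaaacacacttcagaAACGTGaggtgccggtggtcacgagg
The start of CRY2, chr11:45868818-45868863, plus strand, also held 1 E′-box.
CRY2 start: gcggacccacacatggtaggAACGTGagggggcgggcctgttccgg
Within intron 3 of CRY2, chr11:45881414-45881571, plus strand, 1 E-box and 1 E′-box were separated by 106 bases. The E-box lay inside the listed peak and the E′-box just outside it.
CRY2 intron: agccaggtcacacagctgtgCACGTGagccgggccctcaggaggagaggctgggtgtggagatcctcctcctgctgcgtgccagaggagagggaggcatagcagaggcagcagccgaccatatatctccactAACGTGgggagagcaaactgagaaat

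All 5 genes had a BMAL1 peak in shCNT cells, 4 of 5 had one in shBMAL1 cells, 1 had a HIF2α peak in shCNT cells and 2 had one in shBMAL1 cells. Among 20090 protein-coding genes, the shares with a peak in the same kind of window were 12.9% and 18.6% for BMAL1 under shCNT and shBMAL1, and 11.4% and 13.6% for HIF2α. Both BMAL1 lists had a peak at 8.17% of protein-coding genes and at PER1, PER2, CRY1 and CRY2 among the members. Windows of the members were 36.0 kb (PER1) to 122 kb (CRY1) long, beside a median of 47.3 kb for protein-coding genes. Among the 9140 genes with windows in that range of lengths, 13.4% had a shCNT BMAL1 peak and 11.9% a shCNT HIF2α peak. The members thus stood above the background in both BMAL1 lists, whereas for HIF2α the counts rest on PER1 and PER2 alone.

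**Figure D1:**
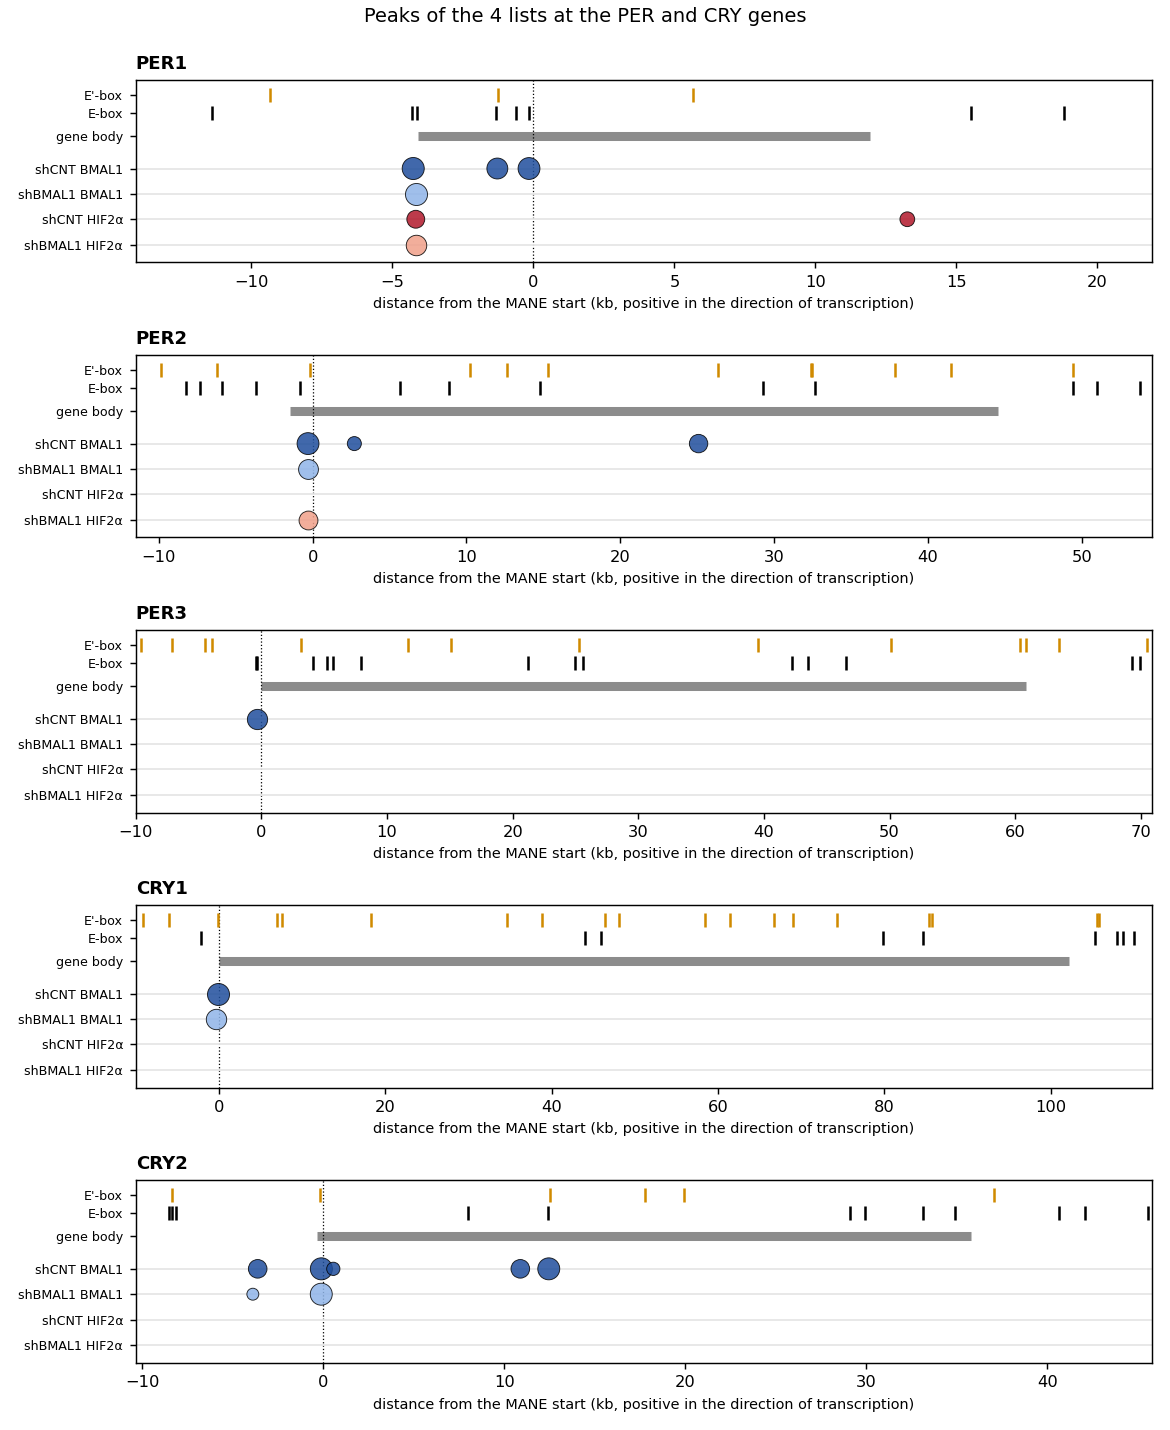
Positions of the peaks of the 4 lists at each gene. The horizontal axis is the distance from the MANE start in kb, positive in the direction of transcription; circles are summits, larger at a higher percentile in the list, grey bars are gene bodies and ticks are E-boxes and E′-boxes. Each of the 5 genes has a BMAL1 summit within 1 kb of its MANE start, and most boxes carry no peak. Other BMAL1 summits lie further off, such as the PER1 upstream summit at -4.265 kb and a PER2 summit at 25.1 kb. In shCNT BMAL1, 7 of 13 member summits lie within 1 kb of a coding start, beside 43.96% of the 2350 peaks of the list.

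The 14 sites fell into 5 patterns. In 8 sites the only peak was that of shCNT BMAL1, and in 3 sites BMAL1 peaks of both shRNAs were present without HIF2α. The PER2 start had BMAL1 peaks under both shRNAs and a HIF2α peak under shBMAL1. The PER1 upstream site was the only one with a peak in all 4 lists, and a site beyond the 3′ end of PER1 had a shCNT HIF2α peak alone.

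**Figure D2:**
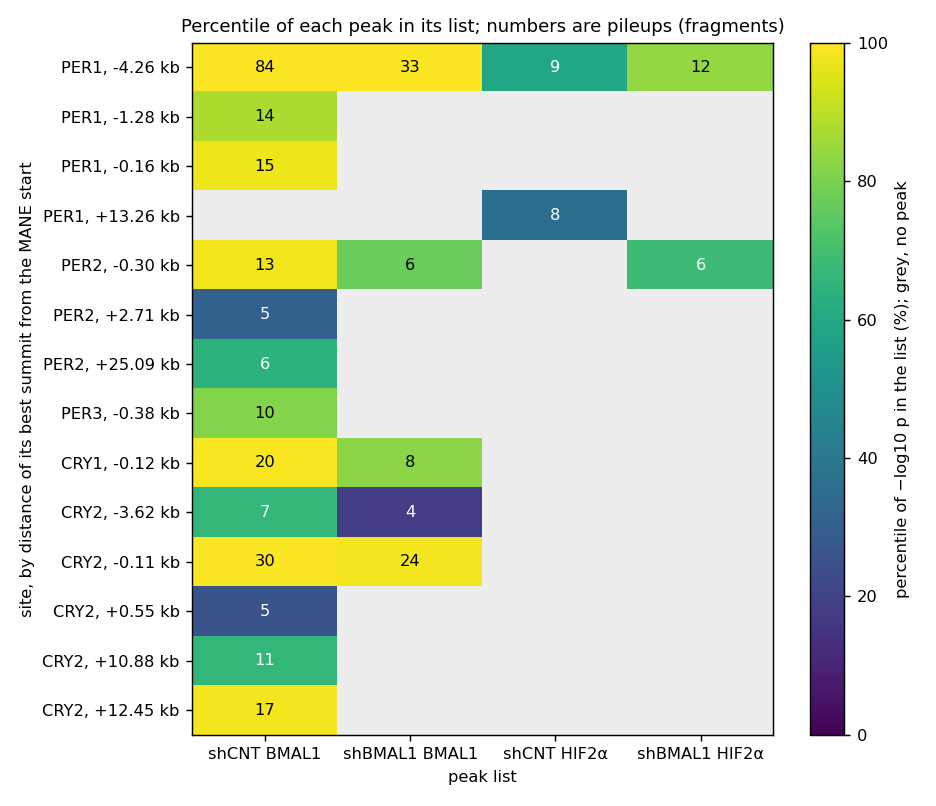
The 14 sites (rows, with the gene and the distance of the best summit from the MANE start in kb) against the 4 peak lists (columns). Colour is the percentile of the peak in its list by −log10 p, numbers are pileups in fragments and grey marks no peak; the PER1 upstream row is filled in all 4 columns, with pileups of 84, 33, 9 and 12.

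PER1, a period protein whose gene responds both to the clock and to acute signals, carried the strongest peak of any member. In shCNT BMAL1 the upstream peak, chr17:8059534-8060649, had a pileup of 84 fragments. Its deposited fold, a ratio of pileup to local background after a constant is added to both, was 66.1. The peak ranked 11 of 2350 by −log10 p and 1 by fold. Of the 10 peaks above it, 9 lay in the gene body of BMAL1 itself, a gene whose body held 14 peaks of that list. The same body held 1 peak of the shBMAL1 BMAL1 list and 0 of either HIF2α list. What these peaks reflect was not tested. The summit of the PER1 upstream peak was 4265 bp upstream of the MANE start and 309 bp upstream of another annotated start of PER1. The summit lay between the 2 E-boxes of the sequence shown above, 56 bp past one and 128 bp before the other. The same site had a pileup of 33 in shBMAL1 BMAL1 (rank 23, fold 26.7), 9 in shCNT HIF2α (rank 947, fold 7.38) and 12 in shBMAL1 HIF2α (rank 521, fold 9.57). In percentiles of its list, where 100 is the strongest peak, it stood at 99.6, 99.5, 59.9 and 83.7 in that order. By BMAL1 antibody it was therefore near the top under both shRNAs, and by HIF2α antibody in the middle of the shCNT list and higher in the shBMAL1 list.

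The other PER1 sites were weaker and each was in 1 list. At the MANE start, chr17:8055713-8056012, the shCNT BMAL1 pileup was 15 (rank 64, percentile 97.3), with the summit 159 bp upstream of the start and 11 bp from the E-box. At the middle site, chr17:8056923-8057754, it was 14 (rank 290, percentile 87.7), with the summit 1282 bp upstream of the start. Both summits lay inside an annotated PER1 transcript that starts further upstream, and neither peak was called in any other list. The shCNT HIF2α peak beyond the 3′ end, chr17:8042142-8042491, had a pileup of 8 and ranked 1510, at percentile 36.1. It held no E-box, E′-box or HRE core (ACGTG or GCGTG) in the 200 bp around its summit. The whole peak of 350 bp held 2 HRE cores and no E-box or E′-box. Peaks of the PER1 window also lay in the windows of VAMP2, which codes for a vesicle membrane protein, and of 1 gene with an identifier only, but the nearest coding start was that of PER1.

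PER2, a period protein and a scaffold of the repressor complex, had 3 BMAL1 sites in shCNT cells. At its start, chr2:239197394-239197691, the pileup was 13 (rank 54, percentile 97.7), with the summit 297 bp upstream of the MANE start and 81 bp upstream of another annotated start. In shBMAL1 BMAL1 the site had a pileup of 6 (rank 963, percentile 77.4), and in shBMAL1 HIF2α it had 6 (rank 1006, percentile 68.6). No shCNT HIF2α peak was listed there. The E′-box lay 103 bp from the shCNT BMAL1 summit, so it fell in the peak but outside the 200 bp around the summit. A D-box (TTATGTAA or TTATGCAA, the site of DBP, TEF and HLF) lay within those 200 bp, as in 1.23% of shCNT BMAL1 peaks. The remaining sites, in intron 9 and intron 1, had pileups of 6 and 5 at percentiles 64.6 and 31.1, with no E-box or E′-box. The intron 1 peak also had a D-box in the 200 bp around its summit. The shCNT BMAL1 peaks of the PER1 MANE start and of PER3 each held a D-box outside that window. For the intron 9 peak the nearest coding start was that of HES6, 23477 bp away, not that of PER2.

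PER3, the third period gene, whose loss affects rhythms less than that of PER1 or PER2, had a single peak. In shCNT BMAL1 it lay at chr1:7843961-7844290 with a pileup of 10 and a fold of 7.62 (rank 440, percentile 81.3). The summit was 377 bp upstream of the start and within 9 and 45 bp of its 2 E-boxes, of which 1 was inside the listed peak. The peak also falls in the window of VAMP3. No peak of the other 3 lists was within 10 kb of PER3.

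CRY1, a cryptochrome and strong repressor of CLOCK-BMAL1, had its BMAL1 peak at the start alone. In shCNT cells, chr12:107487168-107487980, the pileup was 20 (rank 26, fold 16.3, percentile 98.9), with the summit 122 bp upstream of the MANE start and 36 bp from the E′-box. In shBMAL1 cells the pileup was 8 (rank 749, fold 7.82, percentile 82.4), and the summit was 314 bp upstream, 192 bp from the shCNT summit. Neither HIF2α list had a peak there.

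CRY2, the second cryptochrome, had the most BMAL1 peaks of the members, 5 in shCNT cells. Only 0.0348% of protein-coding genes had at least as many, and 0.533% had at least the 3 of PER1 and PER2. The start site, chr11:45868603-45869053, had pileups of 30 in shCNT cells (rank 19, fold 23.1, percentile 99.2) and 24 in shBMAL1 cells (rank 68, fold 17.7, percentile 98.4). Its shCNT summit was 108 bp upstream of the MANE start, 39 bp upstream of another annotated start and 78 bp from the E′-box. The intron 3 site, chr11:45881221-45881542, had a pileup of 17 in shCNT cells (rank 38, fold 14.3, percentile 98.4) and no peak in shBMAL1 cells. A site 3625 bp upstream of the MANE start was weak in both, with pileups of 7 (percentile 66.2) and 4 (percentile 18.2), and with summits 268 bp apart. Peaks in intron 1 and intron 2 had pileups of 5 and 11, at percentiles 26.1 and 66.3, in shCNT cells alone. CRY2 thus had a strong peak at the start under both shRNAs and a strong intron peak in the shCNT list only.

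The order of the best shCNT BMAL1 pileups was PER1 (84; exact 95% Poisson interval 67.0 to 104), CRY2 (30), CRY1 (20), PER2 (13) and PER3 (10). The interval of PER1 lay apart from the others, while those of neighbours among CRY2, CRY1, PER2 and PER3 overlapped. For the 13 shCNT BMAL1 member peaks the median percentile was 87.7, and 6 of them were in the top 5% of the list. For shBMAL1 BMAL1 the median of the 5 peaks was 82.4 and 2 were in the top 5%, and no HIF2α peak of the members was.

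**Figure D3:**
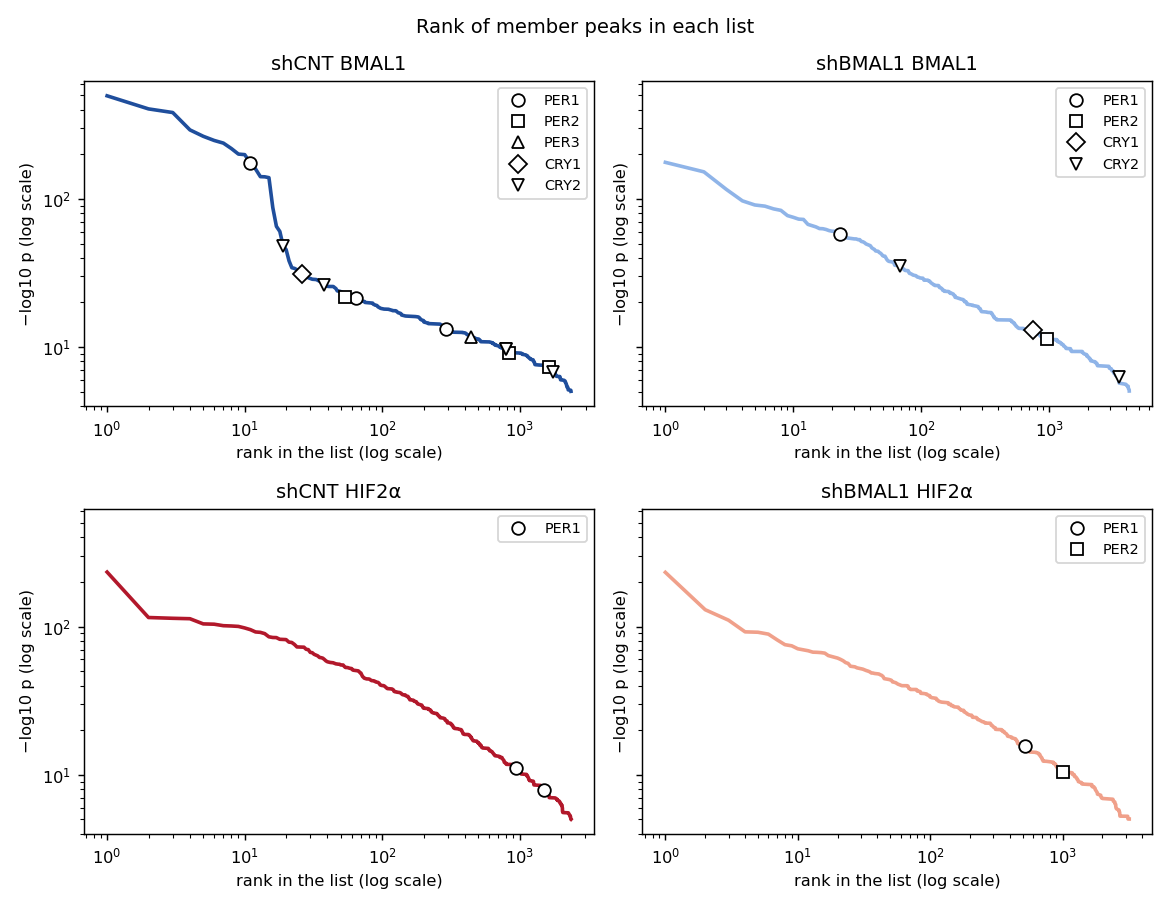
The −log10 p of every peak against its rank in the list, both on log scales, with 1 panel per list. Symbols mark peaks of the members; PER1 ranks 11 in shCNT BMAL1 and 23 in shBMAL1 BMAL1, but 947 and 521 in the HIF2α lists.

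An E-box lay within 100 bp of the summit in 5 of the 13 shCNT BMAL1 member peaks, beside 11.1% of that list. The counts were 1 of 5 for shBMAL1 BMAL1 (4.39% of the list), 1 of 2 for shCNT HIF2α (6.4%) and 1 of 2 for shBMAL1 HIF2α (6%). In the HIF2α lists and in shBMAL1 BMAL1, the peak with an E-box was that of the PER1 upstream site. Of 18878 windows of 200 bp at MANE starts of protein-coding genes, 5.68% held an E-box, 3.13% an E′-box and 43.6% an HRE core. Counting either box raised the shCNT BMAL1 count to 7 of 13, beside 16.6% of the list, and the whole peak gave 8. An E′-box alone was in 6.38% of the shCNT BMAL1 list. Among the 118 peaks in the top 5% of that list, 22.0% had an E-box and 31.4% had either box.

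Among the 261 shCNT BMAL1 peaks with an E-box, that of the PER1 upstream site ranked 1, that of CRY2 intron 3 ranked 7 and that of the PER1 MANE start ranked 12. The middle PER1 peak ranked 57 and PER3 ranked 78. In shBMAL1 BMAL1 the PER1 upstream peak ranked 2 of 187 with an E-box, and in the HIF2α lists 56 of 151 and 34 of 192. The 8 shCNT BMAL1 member peaks with either box in the peak or the window had percentiles from 81.3 to 99.6, and the 5 with neither had percentiles from 26.1 to 66.3. All 6 peaks of the top 5% were in the former. In the whole list 22.3% of peaks had a box by this rule, with a median percentile of 64.6 beside 49.3 for those without, and the share was 36.4% in the top 5%. Wider peaks have more room for a box. The list's median width was 289 bp with a box and 220 bp without, and the members' was 390.5 and 382 bp.

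Most E-boxes of the members carried no peak. The 5 windows held 56 E-boxes, of which 6 (10.7%) were inside a shCNT BMAL1 peak, beside 0.140% of the 274234 E-boxes of the genome and 2.29% of the 9249 within 1 kb of a coding start. PER1 had 4 of its 8 E-boxes in such peaks, PER3 1 of 14, CRY2 1 of 12, and PER2 and CRY1 none of 13 and 9. For E′-boxes the counts in peaks were 1 of 3 for PER1, 1 of 12 for PER2, 1 of 19 for CRY1, 1 of 6 for CRY2 and 0 of 14 for PER3. The PER2 and CRY1 start peaks therefore held an E′-box and no E-box.

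Whether BMAL1 knockdown changed the peaks was addressed by comparing the BMAL1 lists of the shRNAs. Of the 13 shCNT BMAL1 member peaks, 5 overlapped one of the shBMAL1 list, beside 47.1% of all 2350 (Wilson 95% interval 45.1% to 49.1%). Among the 6 in the top 5% the count was 4, beside 70.3% of such peaks in the list. Of the members' peaks, 1 of 5 with an E-box was shared and 4 of 8 without. In the whole list the shares were 35.2% (29.7% to 41.2%) of 261 with an E-box and 48.5% (46.4% to 50.7%) of 2089 without. By this measure the share of member peaks was close to that of the list.

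Of the 8 member peaks that were not shared, 6 would still have had a pileup at or above the lowest one that the shBMAL1 list could hold, had they scaled with depth. The caller passes a pileup of 3 at the genome-wide background of that list. Scaled to its depth, CRY2 intron 3 came to 8.5 fragments, the PER1 MANE start to 7.5, the middle PER1 site to 7.0, CRY2 intron 2 to 5.5, PER3 to 5.0 and PER2 intron 9 to 3.0. The peaks in PER2 intron 1 and CRY2 intron 1 came to 2.5 each, under that limit. For these 2 a loss was not detectable at this depth. For the others, at scaled pileups under 10 fragments, a drop below the limit by counting alone was not tested.

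At the sites with a peak under both shRNAs, pileup was divided by the genome-wide background of its list so that lists of different depth could be set side by side. The PER1 upstream site had 501 (400 to 620) in shCNT cells and 393 (271 to 553) in shBMAL1 cells, a ratio of 0.785 with an exact 95% interval of 0.509 to 1.19. CRY1 had a ratio of 0.800 (0.305 to 1.90), PER2 0.923 (0.288 to 2.60), the CRY2 upstream site 1.14 (0.245 to 4.49) and the CRY2 start 1.6 (0.895 to 2.83). On this scale each interval included 1. The outcome depends on the scale. Divided by the median ratio of all BMAL1 pairs, which leaves the raw pileups nearly as they are, PER1 came to 0.393 (0.254 to 0.594) and CRY1 to 0.40 (0.152 to 0.948), both below 1. Weak shCNT peaks entered that median only when their ratio was high, so it is not a neutral scale for strong peaks. Divided by the median of pairs from the top 5% of the shCNT list, PER1 came to 0.491 (0.318 to 0.743) and the CRY1 interval included 1. The intervals of PER2 and of both CRY2 sites included 1 on all 3 scales. The paper describes spike-in DNA added to each sample for normalization, but the peak lists hold no spike-in factor and none was used here. Which of the 3 scales is right cannot be told from the lists alone.

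**Figure D4:**
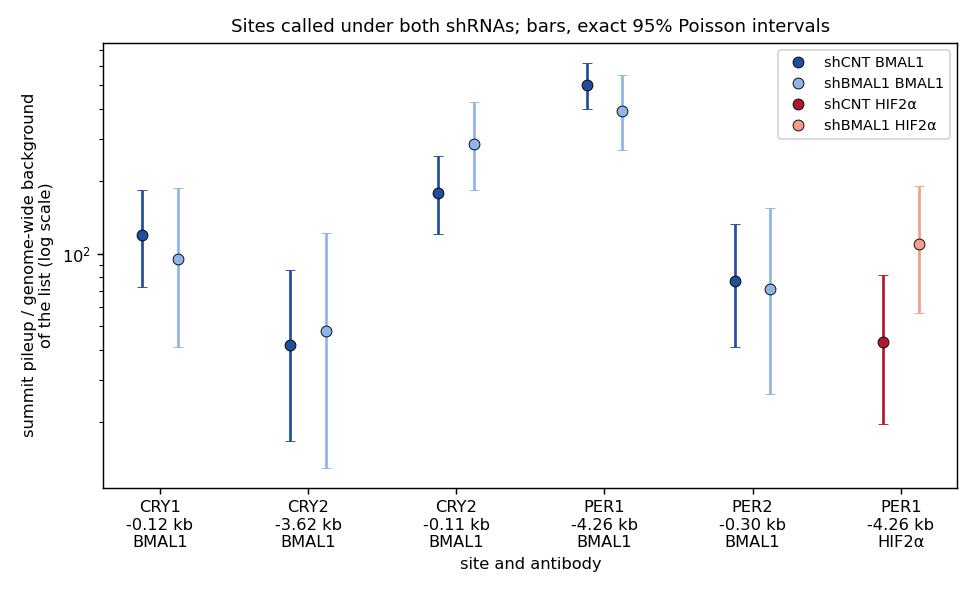
Summit pileup divided by the genome-wide background of the list (log scale) at the 6 combinations of site and antibody called under both shRNAs. Bars are exact 95% Poisson intervals of the pileup; the shCNT and shBMAL1 bars overlap in each pair on this scale, with ratios of 0.785 for BMAL1 and 2.54 for HIF2α at the PER1 upstream site.

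Against other peaks, the ratios of the PER1 upstream site, CRY1 and PER2 lay in the lower part of the range and that of the CRY2 start in the middle. Over all 1106 BMAL1 pairs the median ratio was 2.00 (quartiles 1.5 and 2.57), and 2.35% of pairs had a lower ratio than the PER1 upstream site, 2.44% than CRY1, 3.98% than PER2, 9.22% than the CRY2 upstream site and 28.1% than the CRY2 start. A pair needs a peak in both lists, so that weak shCNT peaks could be paired only when their ratio was high. Among pairs from the top 5% of the shCNT list, the shares with a lower ratio were 15.7% for the PER1 upstream site, 16.9% for CRY1, 19.3% for PER2 and 49.4% for the CRY2 start, which are all top 5% peaks. The CRY2 upstream peak is not one and was not placed among them. In the top 5% the median ratio was 0.923 for the 16 pairs with an E-box and 1.83 for the 67 without, and the PER1 upstream pair, 1 of the 16, lay inside their quartiles of 0.775 and 1.13.

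**Figure D5:**
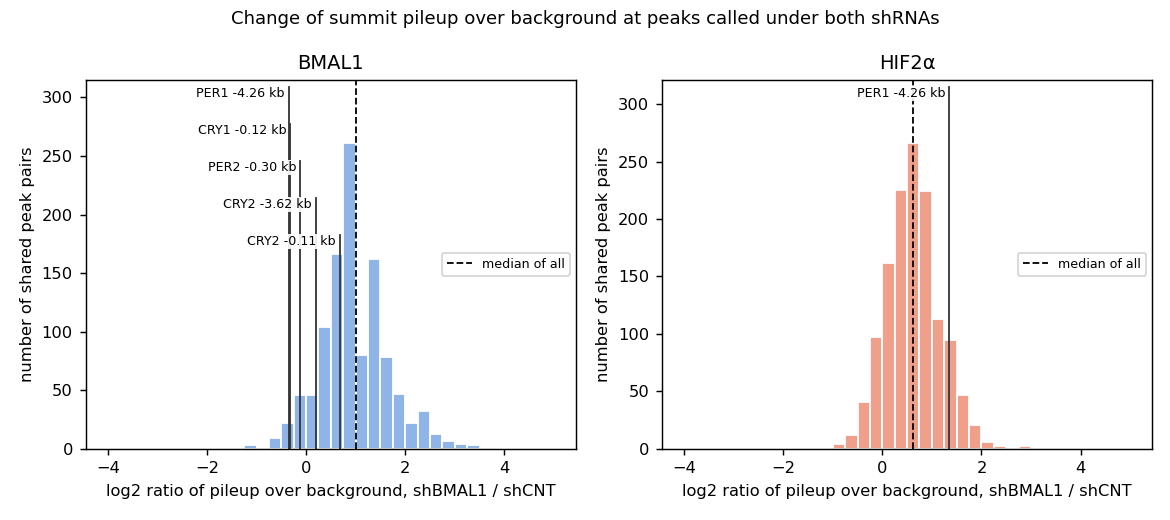
Histograms of the log2 ratio of pileup over background, shBMAL1 over shCNT, for all peaks called under both shRNAs (1106 BMAL1 pairs, 1318 HIF2α pairs). Dashed lines are medians and solid lines mark member sites; the 5 BMAL1 lines lie below the median, and the HIF2α line of PER1 lies above it.

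In rank within the list, the best BMAL1 peak was lower under shBMAL1 in 4 of the 4 genes with a peak in both lists. The percentile went from 99.6 to 99.5 at PER1, from 97.7 to 77.4 at PER2, from 98.9 to 82.4 at CRY1 and from 99.2 to 98.4 at CRY2. Of all 1642 genes with a peak in both lists, 36.5% were lower. A gene that starts near the top has little room to rise, and of the 149 genes with a shCNT percentile of at least 95, members included, 65.1% were lower. With both lists cut to equal length, the shBMAL1 percentiles were lower still, at 59.1 for PER2 and 68.2 for CRY1. The size of those falls, but not their direction, thus depended on the length of the lists. PER1 and CRY2 kept a place in the top 5% and PER2 and CRY1 did not. Ranked by pileup over background, PER1 was instead higher under shBMAL1 by 0.267 percentile points, which left 3 of 4 lower.

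HIF2α was listed at members in PER1 and PER2 only. The PER1 upstream site had pileup over background of 43.1 (19.7 to 81.8) in shCNT cells and 110 (56.7 to 192) in shBMAL1 cells, a ratio of 2.54 with an interval of 0.984 to 6.84. All 1318 HIF2α pairs, which are 55.8% of shCNT HIF2α peaks, had a median ratio of 1.53, and 91.6% had a lower ratio than PER1. At the PER2 start the shBMAL1 pileup of 6 would scale to 11.5 fragments at shCNT depth, above the 4 that the caller passes there, and no shCNT HIF2α peak was listed. The HIF2α peak beyond the 3′ end of PER1 scaled from 8 to 4.19 fragments, which is above the limit of 3 at the genome-wide background but below the limit of 5 at its own local background. An HRE core lay within 100 bp of the HIF2α summits of the PER1 upstream site and the PER2 start, beside 66.2% of shCNT and 59.3% of shBMAL1 HIF2α peaks. HIF2α and BMAL1 summits at the PER1 upstream site were within 114 bp of each other.

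Other genes of the clock were set beside the members. Of 13 genes of the activators and the accessory loops, 7 had a shCNT BMAL1 peak, 6 a shBMAL1 BMAL1 peak, 3 a shCNT HIF2α peak and 6 a shBMAL1 HIF2α peak. Among all protein-coding genes the shares were 12.9%, 18.6%, 11.4% and 13.6% in that order. NR1D1 (REV-ERBα, a repressor of BMAL1 transcription) stood at percentile 99.4 in shCNT BMAL1 and 87.1 in shBMAL1 BMAL1. TEF and DBP, activators that bind the D-box, went from 99.3 to 85.3 and from 99.2 to 86.4. BHLHE41 and CIART, further repressors, went from 95.9 to 77.4 and from 64.6 to 22.6. The best peak was lower under shBMAL1 in 5 of the 5 genes with a peak in both lists, as in 4 of 4 members. Beside this stand 36.5% of all 1642 genes with a peak in both lists. Of the 149 genes with a shCNT percentile of at least 95, 65.1% were lower. Of 8 genes of PER and CRY turnover and partners, 2 had a peak in each BMAL1 list. CSNK1D, the kinase that phosphorylates PER proteins, was the 1 with both and went from 4.94 to 69.7, and TIMELESS was at 45.3 in shCNT cells alone. Among the 13 genes, NR1D2 (95.9) and BHLHE40 (86.0) had a shCNT BMAL1 peak but none under shBMAL1. BHLHE40 stood at 93.3 and 94.4 in the shCNT and shBMAL1 HIF2α lists. BMAL2 had a shBMAL1 BMAL1 peak alone, at 22.6. CLOCK, NPAS2, RORA, NFIL3 and HLF had no BMAL1 peak in either list.

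Genes with the most similar set of best percentiles over the 4 lists were found by Euclidean distance, with 0 for no peak. For PER1 they were SPTBN4 (distance 7.24) and NMRAL1 (10.5), for PER2 CDH3 (12.2) and BHLHE41 (12.6), and for CRY1 TEF (2.84) and LRRC8E (3.86). CRY2 was nearest to IGLON5 and VSIG10L, which tied at 1.26. PER3, with 1 peak, tied at 0 with 4 genes, C22orf39 and HIRA among them.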

How the data were processed

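Chromatin association was measured by CUT&RUN in A498 cells. Of 20 libraries in 6 groups by the labels (4 per antibody and shRNA, 2 per IgG and shRNA), 4 have a peak list that was used and 16 were not analysed here. The authors aligned reads to hg19 (GRCh37) with Bowtie2 2.5.3, filtered them with SAMtools 1.6, called peaks with MACS2 2.2.9.1 (p-value limit 1e-05, maximum gap 400 bp) and removed blacklisted regions with bedtools 2.31.1. Whether replicates were pooled, and which control was used, is not given in the sources used here for these lists. The deposited fold is a linear ratio of pileup at the summit to its local background, after the same constant was added to both. It is therefore not pileup divided by background, and it still carries the depth of its list. For each peak the authors wrote a p-value and a q-value as −log10, and the deposited score is the integer part of 10 times the −log10 p.

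Members, gene lists and alternatives were chosen with earlier results of these data known. Ranks used the −log10 p, and percentiles run from 0 to 100 in the list. Pileup and local background were solved from these values peak by peak, which gave a whole number of fragments for 99.9% of shCNT BMAL1 peaks and 100% of the others. Depth is known only through the background. Genes, MANE starts and basic transcripts were from GENCODE release 44 mapped to GRCh37. Overlap meant at least 1 bp. Motifs were counted in 200 bp around summits, on both strands. Shares have Wilson intervals, pileups exact Poisson intervals, and ratios conditional exact binomial intervals, all at 95%. Named were all peaks of the members, the genes with the nearest start, 21 other clock genes and, for each member, the 2 genes most alike. Of the clock genes chosen, 1 is not reported here. BMAL2 appears in the gene list under its older symbol ARNTL2. Python 3.11.15, pandas 2.3.3, scipy 1.17.1 and pysam 0.24.0 were used, after tests on simulated data. Alternatives changed the window, the threshold, the list length, the motif window, the overlap rule and the ranking column.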

Additional observations from a re-analysis of the deposited data

Results flagged for a closer look

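At the PER1 upstream site the pileup over background moved in opposite directions for the 2 antibodies. The ratio of shBMAL1 to shCNT was 0.785 for BMAL1 and 2.54 for HIF2α, from pileups of 84 and 33 fragments and of 9 and 12 fragments. The difference between the antibodies was not tested, since there is 1 list per group, and each interval includes 1. Divided by the median ratio of all pairs of the antibody, the values were 0.393 (0.254 to 0.594) and 1.67 (0.645 to 4.48). Weak shCNT peaks entered those medians only when their ratio was high.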

How the results depend on the processing

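Of 69 values of the main counts under alternative settings, 60 stayed within 1.5 times the main count and 9 did not. Of 16 differences in percentile between the shRNAs at single genes, 5 stayed within their counting error, 10 moved and 1 reversed. With the gene body alone, member peaks were 3 for shBMAL1 BMAL1 and 1 for shCNT HIF2α. With 50 kb to either side, shCNT HIF2α had 4 peaks and shBMAL1 HIF2α had 6 peaks at 4 genes. A −log10 p of at least 8 left 1 shCNT HIF2α peak. In a window of 100 bp centred on the summit, 3 shCNT BMAL1 peaks held an E-box, and counting E′-boxes too gave 2 peaks for shBMAL1 BMAL1 and 2 for shBMAL1 HIF2α. The number of shared member peaks was 4 or 5 under the other overlap rules and list lengths. Ranking by pileup over background turned the PER1 difference in percentile to 0.267 from -0.0908 and left its place in the top 5% in both lists. Scalings of the pileup ratio chosen after seeing the data turned the CRY2 start to 0.80 and the CRY2 upstream site to 0.571 (by the median of all pairs) or 0.714 (by the top 5%). No paired analysis was possible because the 4 lists analysed here hold no value per replicate, and for the same reason no replicate was left out. The other 16 libraries were not analysed here. Depth limits the weak peaks most, since a pileup of 3 or 4 already passes the caller.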
